A study of Mus musculus with 16 samples.

Results

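The interferon-stimulated genes described here are 39 mouse genes whose transcription is known to rise when a cell receives an interferon signal. They were chosen by symbol. Each gene was represented by 1 probe set, the one with a single gene symbol and the highest mean over all 16 arrays of the series. Of the 39 genes, 35 had such a probe set among 17097 measured genes, and Isg15, Oas1a, Bst2 and Ifi44 were not named by any probe set in the annotation used. Ifit2 and Gbp3 had means under the filter on dim probe sets, 3.67 on the log2 scale, which left 33 of the 14410 tested genes.

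Interferons are cytokines that cells release after sensing foreign or misplaced nucleic acid. Their receptors activate Janus kinases, which phosphorylate STAT proteins such as Stat2, and Stat2 joins Irf9 in a complex that binds the interferon-stimulated response element of target promoters, while interferon gamma acts mainly at a shorter palindromic site. The induced proteins sense viral RNA, block translation, degrade or edit RNA, tag proteins with the ubiquitin-like Isg15, and feed back on the signal itself, and epithelial cells such as those of the mammary gland both make and answer it.

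Promoter windows of 300 bases, from 250 before to 50 after the transcription start (RefSeq, build GRCm38.p6), were found for 30 of the 39 genes. The core of the response element, searched on both strands as GAAA, 2 bases of any kind and GAAA again, occurred in 14 of these 30 windows (46.7%, exact 95% binomial interval 28.3% to 65.7%) and in 3.99% of 27025 genes with a window. The Stat palindrome, TTCNNNGAA, which reads the same on both strands, occurred in 9 of the 30 windows (interval 14.7% to 49.4%) and in 9.55% of those genes. The following stretches are shown because they carry these letters in genes whose array values are described in the results. Bases run 5′ to 3′ on the strand of the gene, and capitals mark the match, which is a match of letters and not a measured binding site.
Gbp2 promoter (chr3:142620569-142620648, plus strand): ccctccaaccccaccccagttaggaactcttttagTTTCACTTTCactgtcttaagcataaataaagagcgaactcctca
Ifit1 promoter (chr19:34640750-34640848, plus strand): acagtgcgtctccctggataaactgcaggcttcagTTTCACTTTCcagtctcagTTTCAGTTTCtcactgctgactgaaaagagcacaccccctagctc
Oas3 promoter (chr5:120777690-120777769, minus strand): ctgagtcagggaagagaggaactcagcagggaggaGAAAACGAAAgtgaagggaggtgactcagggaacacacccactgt
Rsad2 promoter (chr12:26456528-26456607, minus strand): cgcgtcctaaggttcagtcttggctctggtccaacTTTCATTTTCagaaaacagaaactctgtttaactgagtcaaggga
Stat2 promoter (chr10:128270248-128270320, plus strand): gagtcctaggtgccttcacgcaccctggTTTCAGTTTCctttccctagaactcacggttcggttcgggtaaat
Irf1 promoter (chr11:53769888-53769967, plus strand): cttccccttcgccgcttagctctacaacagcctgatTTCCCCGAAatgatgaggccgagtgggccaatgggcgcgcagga
The first 5 hold the response element core and the Irf1 stretch holds the Stat palindrome. In Ifit1 the core occurs 2 times within the stretch.

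The arrays measured RNA from luminal cells of the mammary gland, isolated by fluorescence-activated sorting. The 4 genotypes had 4 arrays each. p38a-lox PyMT mice carried the floxed p38a allele, MMTV-Cre and MMTV-PyMT, PyMT mice carried MMTV-Cre and MMTV-PyMT, p38a-lox mice carried the floxed allele and MMTV-Cre, and MMTV-Cre mice carried the recombinase alone. All 4 groups therefore carried MMTV-Cre, which expresses Cre recombinase from a mammary tumour virus promoter active in mammary epithelium, and MMTV-PyMT expresses the polyoma middle T oncogene from the same promoter. Mice with PyMT were 6 weeks old and mice without it 9 weeks old, which means that an effect of PyMT and one of age cannot be told apart. The labels do not give the share of cells in which Cre had acted. The question of the study is what the kinase p38a, the product of Mapk14, does in luminal cells with and without the oncogene.

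Array medians lay between 4.63 and 4.88, and pairwise correlations between arrays between 0.885 and 0.99. p38a-lox replicate 2 and PyMT replicate 4 stood apart with the lowest median correlation with the other arrays, 0.934 each. The sample titles end in numbers that fall into a lower range under 2100 (9 arrays) and a higher range above it (7 arrays), and the labels do not say what the numbers stand for. Each genotype has arrays in both ranges. Mapk14 did not separate the genotypes as labelled. It had 7.09, 7.25, 7.34 and 7.24 in p38a-lox PyMT arrays against 7.17, 7.12, 7.64 and 6.88 in PyMT arrays, and 6.79, 6.37, 7.91 and 8.16 in arrays labelled p38a-lox against 7.11, 7.43, 5.56 and 6.02 in arrays labelled MMTV-Cre. In the probe set used, arrays labelled p38a-lox without PyMT were below those labelled MMTV-Cre in the lower title range. In the higher range they were above them. Some of the other Mapk14 probe sets showed this and others did not. A dimmer probe set had 5.2 and 5.42 in lower-range p38a-lox arrays against 4.72 and 4.86 in MMTV-Cre arrays. In the higher range it had 4.84 and 5.12 against 4.93 and 4.55. All 6 probe sets of Mapk14 had estimates above 0 in p38a-lox minus MMTV-Cre, from 0.07 to 0.78. The sources used here do not say whether the probe set used lies in the deleted part of the gene. Group names below are therefore those of the labels. The luminal keratin Krt8 lay between 12.14 and 12.54 in every array. Of the defining leukocyte markers, Ptprc and Cd3e were under the filter, while Cd79a, Csf1r and Adgre1 passed it. Of the measured markers, 4 of 6 for T cells and all leukocytes and 2 of 3 for B cells passed the filter. So did 8 of 9 for macrophages and dendritic cells.

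**Figure D1:**
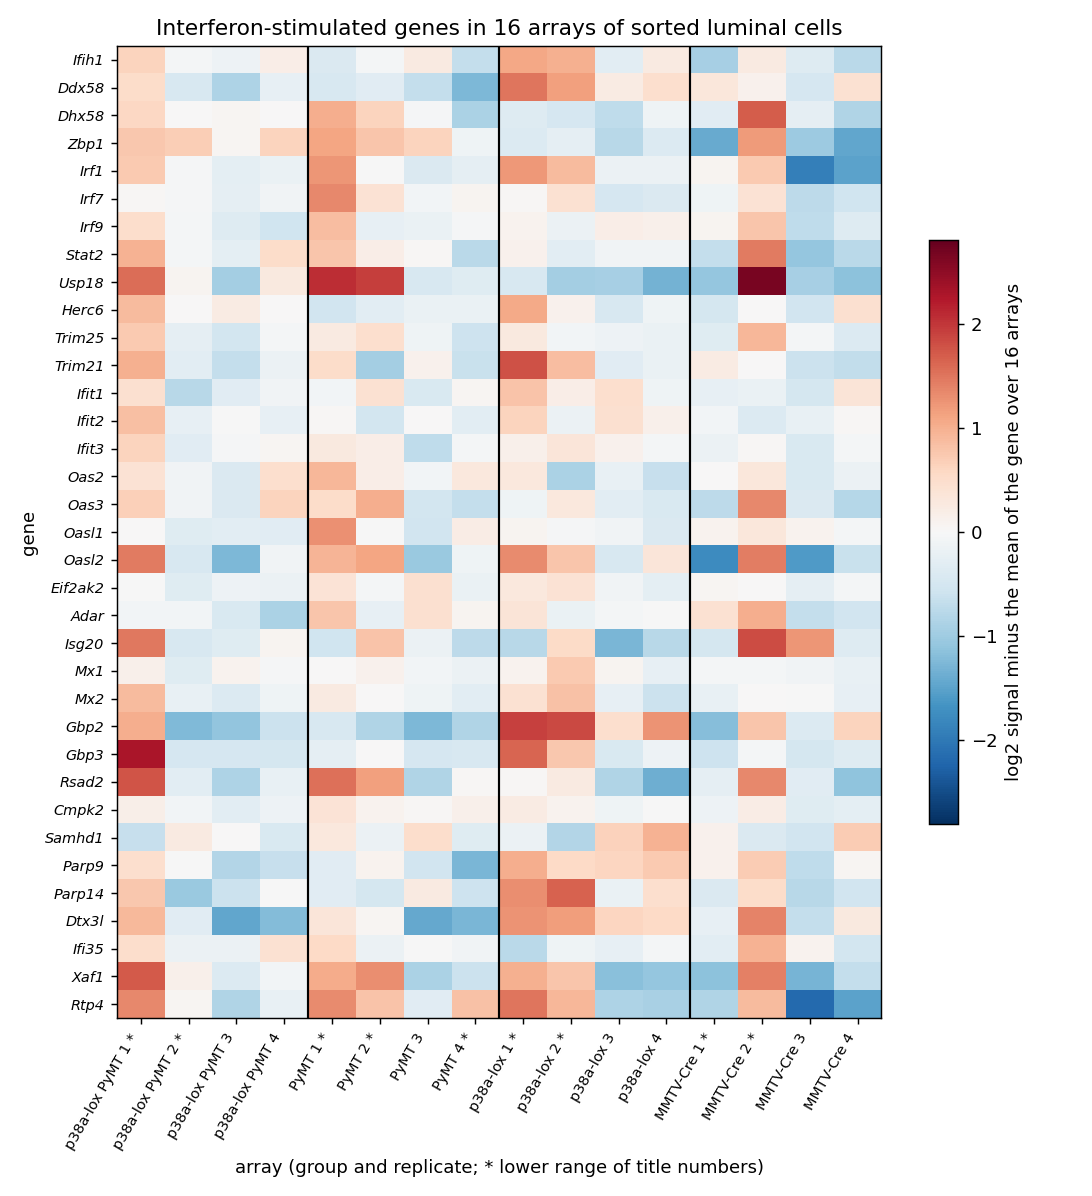
Log2 signal of each of the 35 measured interferon-stimulated genes (vertical) in each of 16 arrays (horizontal, by genotype, asterisk for the lower range of title numbers), as the difference from the mean of that gene over all arrays. Red columns stand out within the groups, in p38a-lox PyMT replicate 1, PyMT replicate 1, p38a-lox replicates 1 and 2 and MMTV-Cre replicate 2, rather than across whole groups.

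Interferon-stimulated genes varied widely between arrays of the same genotype, and the 4 genotypes overlapped. The mean over the 33 tested genes was 6.96, 6.07, 5.83 and 6.17 in p38a-lox PyMT arrays, 6.78, 6.51, 6.02 and 5.93 in PyMT arrays, 6.76, 6.62, 6.06 and 6.13 in p38a-lox arrays, and 5.91, 7.0, 5.7 and 5.87 in MMTV-Cre arrays. Each group held 1 of the 4 highest arrays, and no group stood apart. Group means were 6.26 ± 0.49 in p38a-lox PyMT, 6.31 ± 0.407 in PyMT, 6.39 ± 0.351 in p38a-lox and 6.12 ± 0.596 in MMTV-Cre arrays (SD, n = 4 each). The within-group SD of a gene had a median of 0.518 over the 33 genes, against 0.318 over all tested genes, and 15 of the 33 were in the most variable decile of all genes. Genotype accounted for a median of 22.6% of the variance of these genes, against 20.7% over all tested genes.

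Without the oncogene, arrays labelled p38a-lox were compared with arrays labelled MMTV-Cre, and every direction below holds as labelled, since Mapk14 was higher and not lower by estimate in the arrays labelled p38a-lox. No interferon-stimulated gene passed the threshold, a Benjamini-Hochberg adjusted p under 0.05 in limma over all tested genes, and 0% of all 14410 genes did. The estimates leaned upward, with 24 of 33 genes above 0 and a median log2 difference of 0.22, against 0.00 over all tested genes. At an unadjusted p under 0.05 stood 4 of the 33, all higher in p38a-lox arrays, namely Ifih1, Gbp2, Parp14 and Ddx58, against 4.79% of all tested genes in either direction. In no gene of the 33 did the p38a-lox and MMTV-Cre arrays separate without overlap, which 2.1% of all tested genes did.

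Among the sensors of foreign nucleic acid, Ifih1, the cytosolic receptor MDA5 for long double-stranded RNA, had 7.27, 7.18, 5.9 and 6.44 in p38a-lox arrays and 5.26, 6.43, 5.82 and 5.44 in MMTV-Cre arrays. p38a-lox replicates 1 and 2 stood apart from every MMTV-Cre array, and the other two lay among or beside them. The log2 difference was 0.96 ± 0.324 (SE; limma, Benjamini-Hochberg adjusted p = 0.833). Ddx58, which encodes RIG-I, the receptor for RNA with a free triphosphate end, had 10.61, 10.26, 9.35 and 9.58 in p38a-lox arrays and 9.44, 9.23, 8.65 and 9.54 in MMTV-Cre arrays. Replicates 1 and 2 of p38a-lox were again the highest, and the difference was 0.74 ± 0.331 (limma, adjusted p = 0.999), with 0.88 and 0.16 from its other probe sets. Dhx58, the regulator LGP2 of both receptors, ran the other way by estimate (-0.48 ± 0.465), and Zbp1, a sensor of Z-form nucleic acid, differed by 0.22 ± 0.458.

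Gbp2, a guanylate-binding GTPase that acts on intracellular pathogens and answers interferon gamma strongly, had the largest estimate among the 33. It had 9.84, 9.78, 8.39 and 9.18 in p38a-lox arrays and 6.73, 8.71, 7.53 and 8.55 in MMTV-Cre arrays, so that 3 p38a-lox arrays lay above every MMTV-Cre array. The log2 difference was 1.42 ± 0.51 (limma, adjusted p = 0.879). The probe set used is of a type that can share probes with related sequences, and the other probe set of Gbp2 gave 1.12. Gbp3, under the filter and untested, had 5.09, 4.21, 3.04 and 3.33 in p38a-lox arrays against 2.88, 3.41, 2.97 and 3.1 in MMTV-Cre arrays. The antiviral GTPases Mx1 and Mx2 differed by 0.28 ± 0.174 and 0.22 ± 0.299.

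The 3 genes of ADP-ribosylation all had estimates above 0. Parp14, a mono-ADP-ribosyltransferase, had 8.3, 8.66, 6.82 and 7.48 in p38a-lox arrays and 6.61, 7.52, 6.22 and 6.48 in MMTV-Cre arrays, with a difference of 1.11 ± 0.428 (limma, adjusted p = 0.95) and 0.58 from its second probe set. Parp9 and Dtx3l, which form a complex of ADP-ribosyl- and ubiquitin-transferase, differed by 0.69 ± 0.34 and 0.71 ± 0.55. In all 3 the highest p38a-lox array was replicate 1 or 2, and MMTV-Cre replicate 2 lay within or above the p38a-lox range of each.

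Of the transcription factors, Irf1, an early interferon target that in turn drives further interferon-stimulated genes, had 9.32, 8.98, 7.94 and 7.95 in p38a-lox arrays and 8.18, 8.84, 6.19 and 6.6 in MMTV-Cre arrays. Its difference was 1.1 ± 0.544 (limma, adjusted p = 0.999), and within the higher title range alone, 2 arrays against 2, it was 1.55 with a limma adjusted p of 0.05, just under the threshold before rounding. The 4 arrays compared there are those in which the Mapk14 probe set used goes against the labels most. It stood at 7.91 and 8.16 in arrays labelled p38a-lox and at 5.56 and 6.02 in arrays labelled MMTV-Cre. Some other Mapk14 probe sets overlapped in these arrays. With the labels of these 4 arrays exchanged, the sign of the Irf1 difference there would turn. Irf7, which switches on type I interferon genes, and Stat2 and Irf9, which bind target promoters together, differed by 0.14 ± 0.304, 0.17 ± 0.468 and 0.11 ± 0.315. The remaining roles had no common direction. Of the OAS family, whose enzymes make the oligoadenylate that activates RNase L, Oasl2 had 1.13 ± 0.716, Oas3 0.01 ± 0.463, Oasl1 -0.23 ± 0.272 and Oas2 -0.28 ± 0.283. Of the enzymes that act on RNA, the exonuclease Isg20 had the lowest estimate of all 33 (-1.13 ± 0.575), the adenosine deaminase Adar had -0.03 ± 0.333 and the translation-blocking kinase Eif2ak2 0.14 ± 0.177.

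Within the lower title range the median of the 33 differences was 0.3, with 19 genes above 0, and within the higher range 0.25, with 24 above 0, each from 2 arrays against 2. The direction in the higher range would turn with the labels of its 4 arrays exchanged. Leaving out single arrays moved the median between 0.1 and 0.36. The 6 interferon receptor genes, which were not among the 39, all had estimates above 0 (median 0.42), and 0 of them passed the threshold.

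**Figure D2:**
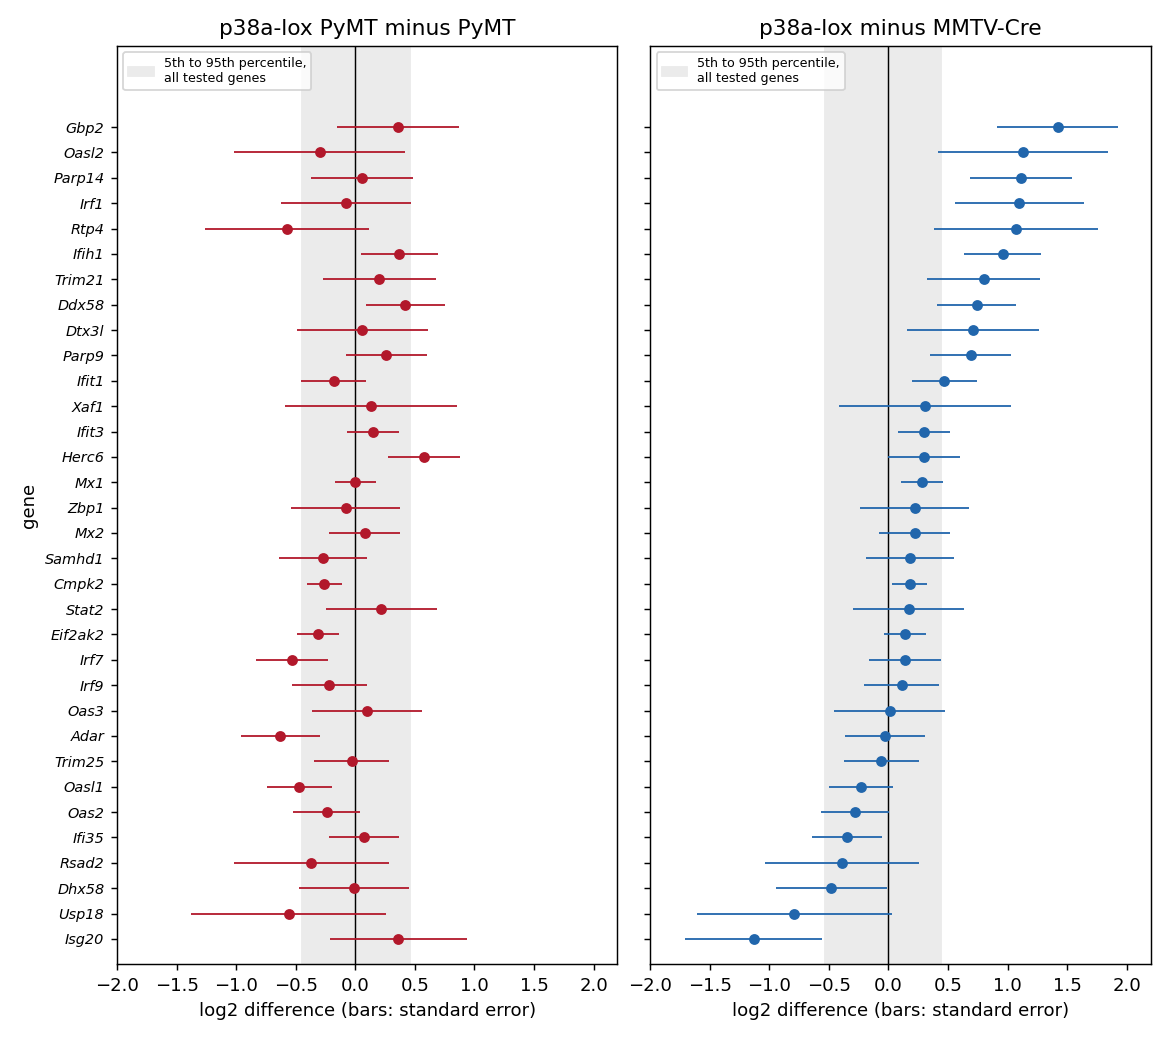
Log2 difference of each of the 33 tested interferon-stimulated genes in p38a-lox PyMT minus PyMT arrays (left) and p38a-lox minus MMTV-Cre arrays (right), with bars for the standard error and grey for the 5th to 95th percentile of all tested genes. Without PyMT, 24 genes lie right of 0, with Gbp2 the farthest at 1.42, and with PyMT 15 do.

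With PyMT the estimates for the same allele lay on both sides of 0. In p38a-lox PyMT against PyMT arrays 15 of 33 genes had estimates above 0, with a median of -0.01 against -0.04 over all tested genes, and none of the 33 passed the threshold, as did 0% of all genes. No interferon-stimulated gene reached an unadjusted p under 0.05, against 3.58% of all tested genes. Herc6, the main ligase that attaches Isg15 to proteins in the mouse, had 6.17, 5.29, 5.53 and 5.3 in p38a-lox PyMT arrays and 4.76, 4.99, 5.11 and 5.11 in PyMT arrays. It was the only one of the 33 whose arrays did not overlap, a share close to the 2.55% of all tested genes. Its exact two-sided permutation p of 0.0286 is the smallest that 4 arrays against 4 can give. Every gene without overlap gets that p, so it adds nothing to the separation. The log2 difference of Herc6 was 0.58 ± 0.303 (limma, adjusted p = 0.999).

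In the other components of the Isg15 system the arrays overlapped, as they did in most tested genes. Usp18, which removes Isg15 from proteins and restrains the type I interferon receptor, had 5.93, 4.44, 3.42 and 4.64 in p38a-lox PyMT arrays and 6.43, 6.3, 3.91 and 4.02 in PyMT arrays. Both groups held high and low arrays and covered nearly the same range, and the difference was -0.56 ± 0.819 (limma, adjusted p = 0.999). The ubiquitin ligases Trim25, which activates RIG-I, and Trim21, a cytosolic antibody receptor, differed by -0.03 ± 0.315 and 0.2 ± 0.474. Adar had the lowest estimate of the 33, with 5.83, 5.85, 5.49 and 5.04 in p38a-lox PyMT arrays and 6.69, 5.69, 6.36 and 5.99 in PyMT arrays, a difference of -0.63 ± 0.333 (limma, adjusted p = 0.999). Its second probe set gave -0.34.

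The sensors Ifih1 and Ddx58 had small positive estimates (0.37 ± 0.324 and 0.42 ± 0.331), and Irf7 (-0.53 ± 0.304) and Oasl1 (-0.47 ± 0.272), which in the mouse limits Irf7 translation, had negative ones. Within the title ranges the median difference was 0.03 in the lower range and 0.09 in the higher range, which holds 1 PyMT array. Rsad2, the antiviral enzyme viperin, showed how wide the groups were, with 8.61, 6.56, 6.0 and 6.64 in p38a-lox PyMT arrays and 8.4, 8.0, 6.01 and 6.9 in PyMT arrays.

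The change of the p38a-lox difference with PyMT, tested as an interaction, passed the threshold in 0 of the 33 genes and in 0% of all tested genes. Its median was -0.31 against -0.04 over all tested genes, 23 of 33 estimates were below 0, and 0 of the 33 reached an unadjusted p under 0.05, against 2.82% of all genes. The smallest p among them was that of Cmpk2, a mitochondrial nucleotide kinase encoded beside Rsad2, with a change of -0.44 ± 0.207 (limma, unadjusted p = 0.0508, adjusted p = 0.992). Leaving out single arrays moved the median between -0.56 and -0.18. The lean of the p38a-lox estimates without PyMT is thus not shown to differ from that with PyMT.

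The comparisons across PyMT share arrays with those across p38a-lox, so their values stand side by side and are not independent. In PyMT against MMTV-Cre arrays 182 genes passed the threshold (1.26%), and none of the 33 did. Of the 33, 26 had estimates above 0 with a median of 0.13, against 0.03 over all tested genes. Zbp1, Irf7 and Rtp4 were higher and Ddx58 lower in PyMT arrays at an unadjusted p under 0.05, a level that 13.8% of all tested genes reached. In none of the 33 did the arrays separate without overlap, against 7.09% of all genes.

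Zbp1 had 7.35, 7.02, 6.85 and 6.12 in PyMT arrays and 4.83, 7.43, 5.21 and 4.79 in MMTV-Cre arrays. All 4 PyMT arrays exceeded 3 of the MMTV-Cre arrays, and MMTV-Cre replicate 2 exceeded every PyMT array. The difference was 1.27 ± 0.458 (limma, adjusted p = 0.209), and without MMTV-Cre replicate 2 it was 1.89 with a limma adjusted p of 0.00324. The second probe set of Zbp1 gave 0.08, so the difference rests on 1 of the 2 probe sets. Rtp4, a receptor transporter induced by type I interferon, had 9.79, 9.25, 8.14 and 9.27 in PyMT arrays and 7.62, 9.35, 6.27 and 6.96 in MMTV-Cre arrays, with a difference of 1.56 ± 0.688 (limma, adjusted p = 0.327). A dimmer probe set of Rtp4 gave 0.09.

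Irf7 differed by 0.69 ± 0.304 (limma, adjusted p = 0.33), with PyMT arrays at 7.58, 6.65, 6.16 and 6.32 and MMTV-Cre arrays at 6.12, 6.65, 5.51 and 5.69. Ddx58 had 8.68, 8.81, 8.45 and 7.86 in PyMT arrays and 9.44, 9.23, 8.65 and 9.54 in MMTV-Cre arrays, a difference of -0.77 ± 0.331 (limma, adjusted p = 0.312), with -1.24 and -0.03 from its other probe sets. The 4 OAS genes and the 4 transcription factors all had estimates above 0, with medians of 0.32 and 0.51. The ADP-ribosylation genes Dtx3l and Parp9 had estimates of -0.77 ± 0.55 and -0.54 ± 0.34.

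**Figure D3:**
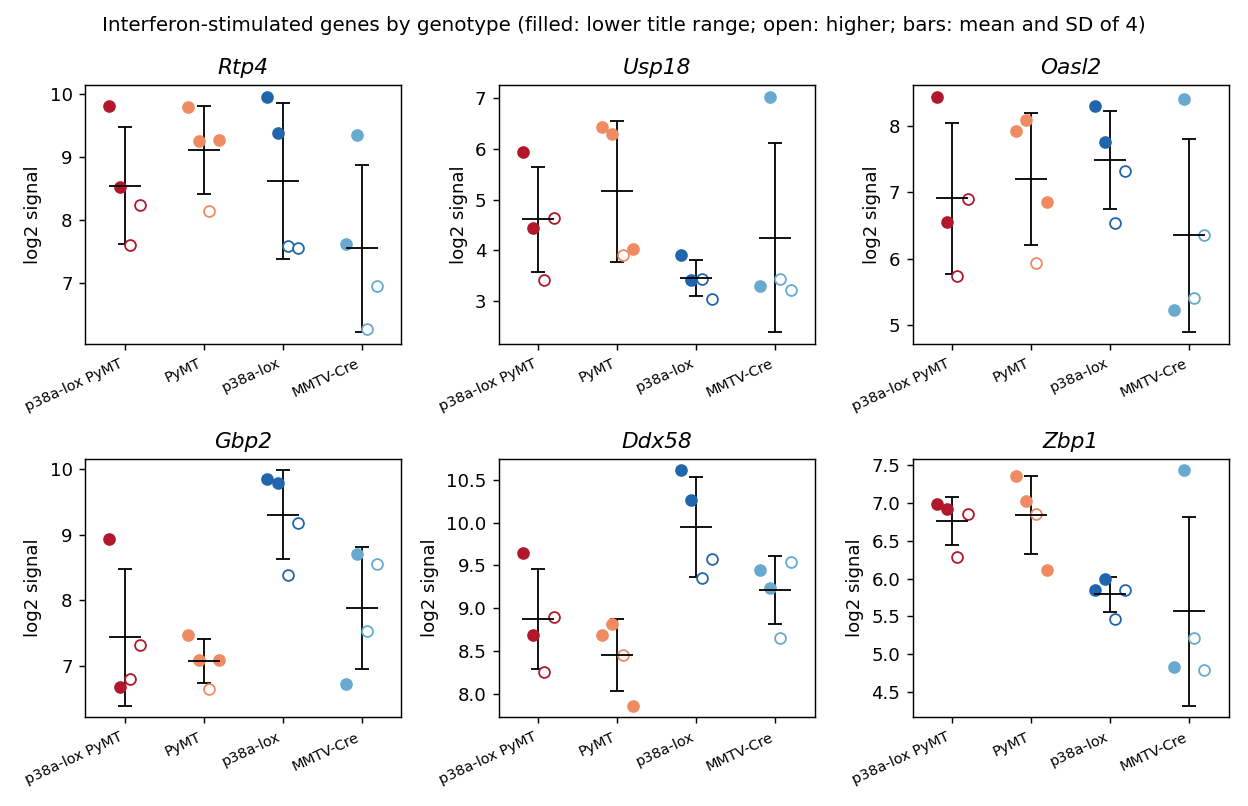
Log2 signal of Rtp4, Usp18, Oasl2, Gbp2, Ddx58 and Zbp1 by genotype, 1 point per array, filled for the lower and open for the higher range of title numbers, with the mean and SD of 4 arrays. Gbp2 and Ddx58 are highest in p38a-lox arrays, Zbp1 separates p38a-lox PyMT from p38a-lox arrays, and in Usp18 MMTV-Cre replicate 2 stands at 7.03 above 3 arrays between 3.22 and 3.44.

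In p38a-lox PyMT against p38a-lox arrays 112 genes passed the threshold (0.777%) and again none of the 33. Here 13 of 33 estimates were above 0, with a median of -0.12 against -0.02 over all tested genes. The 5 genes at an unadjusted p under 0.05 were all lower in p38a-lox PyMT arrays, where 12.2% of all tested genes reached that level in either direction. They were Gbp2, Ddx58 and the 3 ADP-ribosylation genes. Gbp2 had 8.93, 6.69, 6.81 and 7.32 in p38a-lox PyMT arrays against 9.84, 9.78, 8.39 and 9.18 in p38a-lox arrays, so that only p38a-lox PyMT replicate 1 reached into the p38a-lox range. The difference was -1.86 ± 0.51 (limma, adjusted p = 0.114), and its second probe set gave -1.78. Without p38a-lox PyMT replicate 1 the difference in the probe set used was -2.36 with a limma adjusted p of 0.0236. That fit called 194 of all tested genes. Of the fits that left out 1 array, only that fit called any of the 33 in this comparison.

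Ddx58 had 9.64, 8.68, 8.25 and 8.9 in p38a-lox PyMT arrays and 10.61, 10.26, 9.35 and 9.58 in p38a-lox arrays. All p38a-lox PyMT arrays but the first lay under every p38a-lox array, and the groups differed by -1.08 ± 0.331 (limma, adjusted p = 0.161), with -1.95 and -0.23 from the other probe sets. Parp9 had 7.4, 6.92, 6.1 and 6.29 in p38a-lox PyMT arrays and 7.94, 7.49, 7.52 and 7.65 in p38a-lox arrays, which did not overlap, and differed by -0.97 ± 0.34 (limma, adjusted p = 0.228). Dtx3l had 8.99, 7.75, 6.62 and 6.86 in p38a-lox PyMT arrays and 9.34, 9.24, 8.68 and 8.64 in p38a-lox arrays, a difference of -1.42 ± 0.55 (limma, adjusted p = 0.29). Parp14 differed by -1.03 ± 0.428, with -0.57 from its second probe set. The same p38a-lox arrays enter the comparison with MMTV-Cre, where these 5 genes had their estimates above 0.

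The arrays did not overlap in 3 of the 33 genes, a share close to the 8.16% of all tested genes. Parp9 was lower in p38a-lox PyMT arrays, and Zbp1 and Dhx58 were higher. Their exact two-sided permutation p of 0.0286 follows from the lack of overlap and adds nothing to it. Zbp1 had 6.98, 6.92, 6.28 and 6.85 in p38a-lox PyMT arrays and 5.85, 5.99, 5.46 and 5.85 in p38a-lox arrays (0.97 ± 0.458, limma adjusted p = 0.414), and its second probe set gave 0.11. Dhx58 had 5.81, 5.23, 5.27 and 5.23 in p38a-lox PyMT arrays and 4.85, 4.76, 4.51 and 5.1 in p38a-lox arrays (0.58 ± 0.465, limma adjusted p = 0.698). Its second probe set gave 0.41 with overlapping arrays, p38a-lox PyMT replicate 3 lying under p38a-lox replicate 1, and the dimmest gave 0.04. By estimate the sensors Zbp1 and Dhx58 were higher, and Ddx58 and Ifih1 (-0.36 ± 0.324) were lower. None of them passed the threshold.

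Some markers of other cell types differed with PyMT. S100a8, a neutrophil marker that epithelial cells can also make, was 4.16 ± 0.597 higher in PyMT than in MMTV-Cre arrays (limma, adjusted p = 0.005). S100a9, the partner of S100a8 and the only other tested neutrophil marker of 5 listed, differed by 0.12 ± 0.204 (limma, adjusted p = 0.867). The mean over the 3 measured neutrophil markers, which include Csf3r under the filter, lay between 5.28 and 5.79 in p38a-lox PyMT, 5.57 and 6.82 in PyMT, 4.55 and 5.59 in p38a-lox and 4.49 and 4.97 in MMTV-Cre arrays. Cd68, a lysosomal macrophage marker, was 2.74 ± 0.56 higher in p38a-lox PyMT than in p38a-lox arrays (limma, adjusted p = 0.0357). The other tested macrophage and dendritic markers did not follow it. Their estimates in that comparison ran from -0.36 (Cd74) to 0.26 (Lyz2), and none of them passed the threshold. The mean over the 9 measured of 10 macrophage and dendritic markers, Cd68 among them, lay between 4.88 and 5.0 in p38a-lox PyMT, 4.81 and 5.09 in PyMT, 4.5 and 5.03 in p38a-lox and 4.67 and 4.9 in MMTV-Cre arrays. That over the 6 measured of 7 T cell and pan-leukocyte markers lay between 4.27 and 4.43 in p38a-lox PyMT, 4.23 and 4.52 in PyMT, 4.24 and 4.68 in p38a-lox and 4.28 and 4.42 in MMTV-Cre arrays. Trp63, a basal epithelial marker, was 2.2 ± 0.39 higher in PyMT than in MMTV-Cre arrays (limma, adjusted p = 0.0142). The 8 tested basal markers had estimates from -0.39 to 2.54 there. In p38a-lox PyMT minus p38a-lox arrays Trp63 had 1.77 ± 0.39 (limma, adjusted p = 0.0504). The mean over the 8 measured of 9 basal epithelial markers was 7.33 to 8.14 in p38a-lox PyMT, 7.12 to 8.0 in PyMT, 5.37 to 7.23 in p38a-lox and 5.76 to 7.57 in MMTV-Cre arrays. Their part in the differences of interferon-stimulated genes was not tested, and in bulk RNA fewer cells of a type and less RNA per cell cannot be told apart.

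**Figure D4:**
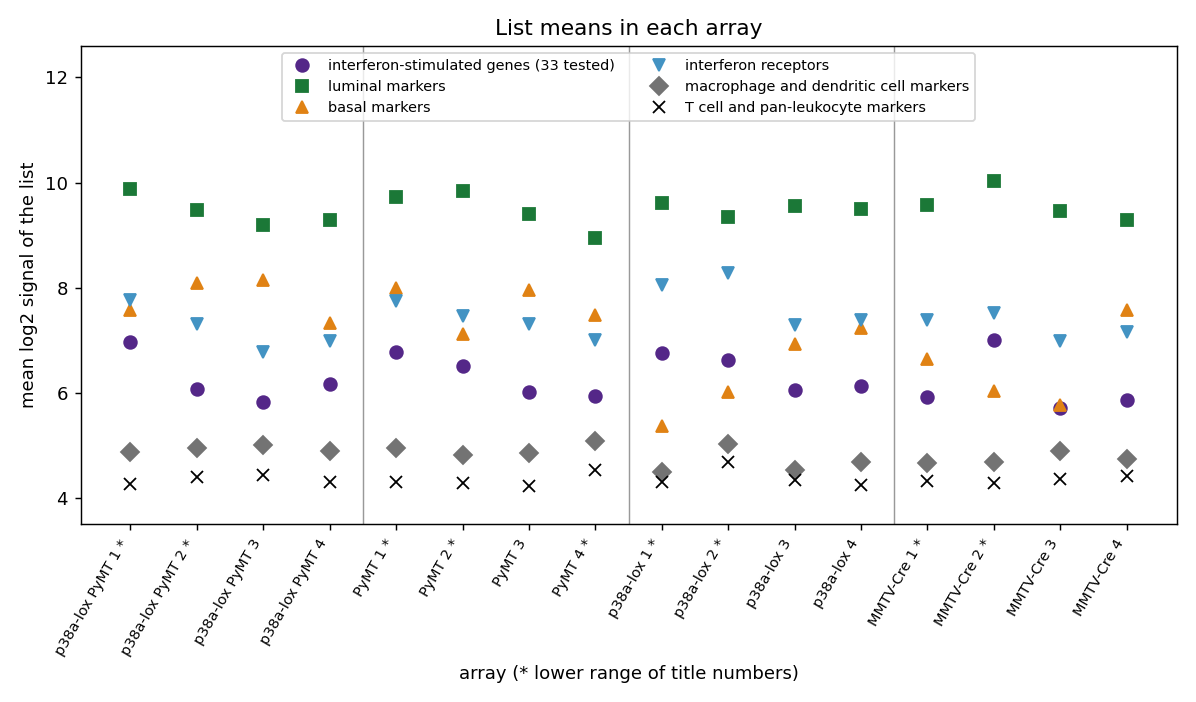
Mean log2 signal per array of the 33 tested interferon-stimulated genes and of lists of cell type markers and interferon receptors, by genotype, with an asterisk for the lower range of title numbers. Levels are to be read along an array series and not between lists, and the 6 highest means of the interferon-stimulated genes all fall on arrays with an asterisk, while the macrophage and dendritic list stays between 4.5 and 5.09 in all 16.

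The clearest pattern of these genes was that they moved together from array to array. After removal of the group means, the 528 pairs of tested genes had a median Pearson correlation of 0.539 and a median Spearman correlation of 0.507 over 16 arrays, and 489 pairs (92.6%) were above 0. The mean correlation was 0.474, against 0.0312 over all tested genes. All pairs share the same arrays and their normalization, so these correlations are a description. Xaf1, a pro-apoptotic partner of the caspase inhibitor XIAP, followed the mean of the other 32 genes most closely (r = 0.94), with Cmpk2 and Oasl2 at 0.92 and Rsad2, Dtx3l, Trim25 and Usp18 at 0.9. Mx1 (0.39), Ifit1 (0.4) and Herc6 (0.42) followed it least among those above 0, and Samhd1, which breaks down deoxynucleotides, ran against it (r = -0.48).

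Xaf1 and Oasl2 show the shared profile gene by gene. Xaf1 had 8.12, 6.54, 6.03 and 6.32 in p38a-lox PyMT arrays, 7.45, 7.7, 5.52 and 5.8 in PyMT arrays, 7.41, 7.18, 5.23 and 5.32 in p38a-lox arrays, and 5.25, 7.82, 5.1 and 5.73 in MMTV-Cre arrays. Oasl2 had 8.45, 6.55, 5.74 and 6.9 in p38a-lox PyMT arrays, 7.93, 8.09, 5.94 and 6.86 in PyMT arrays, 8.31, 7.76, 6.54 and 7.33 in p38a-lox arrays, and 5.22, 8.42, 5.4 and 6.36 in MMTV-Cre arrays. In both genes p38a-lox PyMT replicate 1, PyMT replicates 1 and 2, p38a-lox replicates 1 and 2 and MMTV-Cre replicate 2 were the 6 highest arrays. Cmpk2 varied on a narrow scale, from 4.88 in MMTV-Cre replicate 3 to 5.61 in PyMT replicate 1. Samhd1 had its highest values, 8.26, 8.6 and 8.32, in p38a-lox replicates 3 and 4 and MMTV-Cre replicate 4, arrays where Xaf1 was low.

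Other genes had narrow ranges or few high arrays. Mx1 lay between 4.28 and 5.34 and Eif2ak2 between 3.35 and 4.14 over all arrays, and Ifit2, under the filter, between 2.92 and 4.27, so these probe sets sit low on the scale of their arrays. Ifit1 ran from 4.66 in p38a-lox PyMT replicate 2 to 6.24 in p38a-lox replicate 1, and Ifit3 from 5.14 in PyMT replicate 3 to 6.46 in p38a-lox PyMT replicate 1. Gbp3, also under the filter, was near its floor in most arrays and stood out at 5.74 in p38a-lox PyMT replicate 1 and at 5.09 and 4.21 in p38a-lox replicates 1 and 2.

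A few arrays carried the high values. MMTV-Cre replicate 2 held the highest value of 16 for 10 of the 33 genes, among them Stat2, Usp18, Zbp1, Dhx58 and Oas3, and p38a-lox replicate 1 for 8, among them Ifih1, Ddx58, Gbp2 and Rtp4. These arrays held the highest value for 9.99% and 5.86% of all tested genes. PyMT replicate 1 held it for 6, including Irf1, Irf7 and Irf9, and p38a-lox PyMT replicate 1 for 5, including Rsad2, Xaf1 and Oasl2, against 4.68% and 1.75% of all tested genes. The high arrays differed in which genes stood out. Gbp2, Parp14 and Ddx58 were highest in p38a-lox replicates 1 and 2, where Usp18 had 3.91 and 3.42, near its lowest values, while Usp18 reached 7.03 in MMTV-Cre replicate 2, 6.43 in PyMT replicate 1 and 5.93 in p38a-lox PyMT replicate 1.

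These arrays all belong to the lower range of title numbers. Of the 33 genes, 31 (93.9%) had their highest value in that range, as did 74.6% of all tested genes. For 21.0% and 15.3% of all tested genes the highest value lay in p38a-lox replicate 2 and PyMT replicate 4, the arrays of this range that stood apart from the rest. With genotype in the model, 32 of 33 genes had higher estimates in the lower than in the higher range, Samhd1 (-0.52 ± 0.243) being the exception, and the median was 0.46 against 0.03 over all tested genes. Without p38a-lox replicate 2 the median was 0.46 and without PyMT replicate 4 it was 0.52. Markers of the sorted luminal cells and of other cell types also differed by estimate between the title ranges. Of 8 basal epithelial markers 7 had lower estimates in the lower range (median -0.51), among them Krt5 (-1.03), Krt14 (-0.93) and Mylk (-0.79). Of 11 luminal markers 9 had higher estimates there (median 0.14), with Foxa1 at 1.19 and Esr1 at 0.87, and so had all 4 tested fibroblast markers (median 0.53), with Dcn at 1.24. The 8 tested macrophage and dendritic markers lay on both sides of 0, from -0.4 (Lyz2) to 0.23 (Flt3). None of these markers passed the threshold, and their part in the difference was not tested. The title range added a median of 19.2% of variance for these genes and 6.31% for all tested genes. At an unadjusted p under 0.05 stood 15 of 33, against 15.3% of all tested genes, and without single arrays this count ran from 8, without p38a-lox PyMT replicate 1, and 9, without p38a-lox PyMT replicate 3, up to 19. Rtp4 alone passed the adjusted threshold, as did 0.111% of all genes.

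Rtp4 ran from 7.62 through a median of 9.35 to 9.95 in the 9 arrays of the lower range, and from 6.27 through a median of 7.59 to 8.24 in the 7 arrays of the higher range. Only MMTV-Cre replicate 1, at 7.62, lay among the values of the higher range. The difference was 1.65 ± 0.271 (limma, adjusted p = 0.0368), with Rtp4 the smallest p of the 33. The dimmer probe set of Rtp4, not tested for the title range, did not separate the ranges. It ran from 4.34 to 5.9 in the lower range, the highest being p38a-lox replicate 2, and from 4.34 to 4.96 in the higher. The call thus rests on 1 of the 2 probe sets. The call ended without MMTV-Cre replicate 3 or 4, any p38a-lox array, PyMT replicate 1, 2 or 3, or p38a-lox PyMT replicate 1, 3 or 4, with adjusted p up to 0.11 in those limma fits. Without PyMT replicate 4, 4 of the 33 passed, as did 236 of all tested genes (1.64%), and over all such fits the median of the 33 stayed between 0.33 and 0.54, with 31 or 32 above 0.

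Next in size were Xaf1 (1.44 ± 0.385), Rsad2 (1.36 ± 0.33), Usp18 (1.24 ± 0.522), Oasl2 (1.2 ± 0.436), Irf1 (1.19 ± 0.26) and Dtx3l (1.04 ± 0.308), with limma adjusted p of 0.0956 for Irf1 and 0.115 to 0.284 for the rest. Every role leaned the same way, from a median of 0.24 for the tested IFIT genes Ifit1 and Ifit3, which bind viral RNA, to 1.44 for Rtp4, Xaf1 and Ifi35. Ifi35 alone differed by 0.1 ± 0.22. Not every array of the lower range was high. MMTV-Cre replicate 1, PyMT replicate 4 and p38a-lox PyMT replicate 2 had means over the 33 genes of 5.91, 5.93 and 6.07, among those of the higher range, which ran from 5.7 to 6.17.

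**Figure D5:**
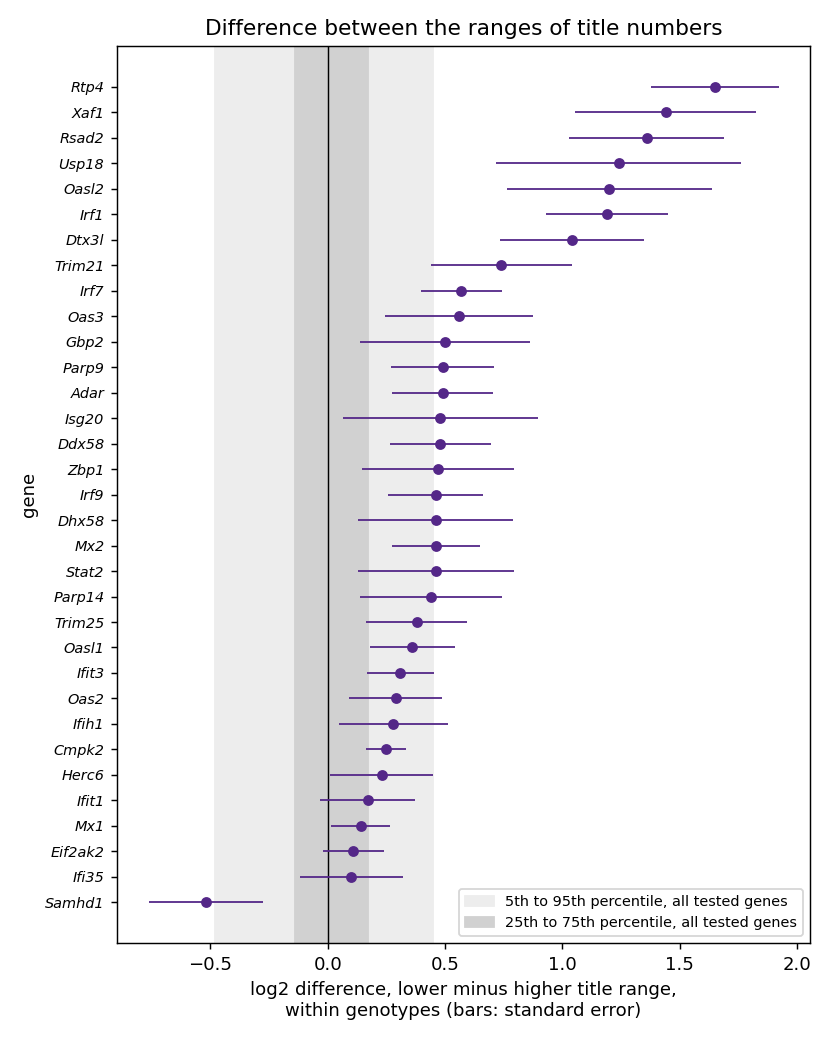
Log2 difference of each of the 33 tested interferon-stimulated genes between arrays of the lower and of the higher range of title numbers with genotype in the model, with bars for the standard error and grey bands for percentiles of all tested genes. All genes but Samhd1 lie right of 0, and Rtp4 is the farthest at 1.65.

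The upstream and downstream parts of the pathway showed parts of the same pattern. The 6 interferon receptor genes were all higher by estimate in the lower title range (median 0.39), led by Ifngr1, a chain of the interferon gamma receptor (1.06 ± 0.304, limma adjusted p = 0.17). The 4 measured Janus kinases and STATs were all above 0 too (median 0.41), while the 3 tested interferon genes themselves had a median of 0.04 and Ifnb1 lay between 4.77 and 5.19 in every array. Of 33 tested further interferon-induced genes 23 were above 0 (median 0.19), and of 10 tested class I antigen presentation genes 8 (median 0.14). The 11 tested genes that act in the induction of interferons had estimates from -0.37 to 0.45, the highest being Irf8 (limma, adjusted p = 0.0766). None of these passed the threshold.

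The promoter letters did not divide the array pattern. The 10 tested genes with the response element core in their window and the 14 without it had the same median difference between title ranges (0.47 in both), and median correlations with the other genes of 0.68 and 0.74. For p38a-lox against MMTV-Cre the medians were 0.38 with the core and 0.16 without it. These are descriptions of small sets, and a window without the letters says nothing of the factor.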

How the data were processed

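RNA of sorted luminal mammary cells was measured on 16 Affymetrix mouse arrays with perfect-match probes. The authors deposited log2 signals, which they obtained with RMA, per the submitters' processing notes, and the sources used here do not give its version or settings. RMA normalizes all arrays to 1 distribution, so differences in total RNA cannot be read from these values.

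Of 45141 deposited probe sets, 28898 carried 1 gene symbol in the platform annotation. Each gene was represented by its brightest such probe set, and 14410 of 17097 genes, those with a mean not under the lowest quartile of the probe sets, were tested with limma 3.58.1 in R 4.3.3. One linear model over all 16 arrays held the 4 group means, and a gene was called at a two-sided Benjamini-Hochberg adjusted p under 0.05 over all tested genes. A second model added the title range, divided at 2100. Within-range fits used the arrays of 1 range alone. The procedure was tested on simulated data.

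The labels do not say that each array is a separate animal, so a p here measures only how these samples spread, which may be technical, and the number of arrays limits the precision. Replicate numbers follow accession order and pair nothing. The genes, related gene lists and title ranges were chosen with earlier results of these data known. All 39 genes may be named, and from each other list up to 4 with the smallest p and those called. Alternatives were other filters, probe set summaries, scalings and eBayes options, array weights, only the arrays compared, the title ranges and leaving out arrays.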

Additional observations from a re-analysis of the deposited data

Results flagged for a closer look

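A single array stood far from the other 3 of its group in 6 of 140 sets of 4 arrays, 1 set per measured interferon-stimulated gene and genotype, by a gap to the nearest array that exceeded Dixon's critical share of the whole range. Chance flags about 1 in 20 such sets, a share that 6 of 140 does not exceed. In MMTV-Cre replicate 2, Usp18 stood at 7.03 with the other arrays between 3.22 and 3.44, Stat2 at 7.31 with the others between 4.78 and 5.19, and Zbp1 at 7.43 with the others between 4.79 and 5.21. In p38a-lox PyMT replicate 1, Gbp3 stood at 5.74 with the others between 2.98 and 3.0, Dhx58 at 5.81 with the others between 5.23 and 5.27, and Oasl1 at 4.38 with the others between 4.05 and 4.09. The 6 sets all lie on these arrays and all on the high side. The second probe set of Zbp1 had 6.032 in MMTV-Cre replicate 2, with the other arrays between 5.955 and 6.186. That of Dhx58 had 4.731 in p38a-lox PyMT replicate 1, with the other arrays between 4.143 and 4.695. The flags of Zbp1 and Dhx58 thus rest on 1 probe set each. The genes set apart in MMTV-Cre replicate 2 were a signal transducer, a feedback protease and a nucleic acid sensor. Those in p38a-lox PyMT replicate 1 were the GTPase Gbp3, which was under the filter and untested, the sensor regulator Dhx58 and the Irf7 repressor Oasl1, which stood out by a small margin.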

How the results depend on the processing

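No paired analysis was possible because the replicate numbers come from accession order and the labels give no pairing. The median log2 difference of the 33 genes moved by less than 0.47 under every alternative run. That limit is the pooled SD, between arrays of a group, of the mean over the 33 genes. It is larger than the median in any of the comparisons, so even a change of sign can stay within it. Over all alternatives it ran from 0.1 to 0.36 in p38a-lox minus MMTV-Cre and from -0.57 to -0.18 in the interaction. It changed sign in p38a-lox PyMT minus PyMT (-0.39 to 0.1), in PyMT minus MMTV-Cre (-0.02 to 0.48) and in p38a-lox PyMT minus p38a-lox (-0.25 to 0.03). Leaving out single arrays, it ran from 0.1 to 0.36 in p38a-lox minus MMTV-Cre, from -0.26 to 0.1 in p38a-lox PyMT minus PyMT, from 0.03 to 0.31 in PyMT minus MMTV-Cre, from -0.25 to -0.02 in p38a-lox PyMT minus p38a-lox and from -0.56 to -0.18 in the interaction. Genes called over all 14410 then numbered 0 to 4, 0 to 3, 49 to 443, 26 to 230 and 0 to 0 in these comparisons, and interferon-stimulated genes 0 to 0, 0 to 0, 0 to 1 (Zbp1, without MMTV-Cre replicate 2), 0 to 1 (Gbp2, without p38a-lox PyMT replicate 1) and 0 to 0. For p38a-lox minus MMTV-Cre, where 0 genes were called, limma called 1 with no filter and 8 with array weights. It called 85 within the higher title range, among them 1 of the 33, Irf1. In the 4 arrays compared there, the Mapk14 probe set used goes against the labels. For p38a-lox PyMT minus PyMT, array weights gave 5 calls in place of 0, none of them among the 33. For PyMT minus MMTV-Cre, the 182 calls became 1268 with array weights, 55 with only the arrays compared, 3 within the lower and 839 within the higher title range, and 111 without p38a-lox replicate 2 and PyMT replicate 4, a choice made after seeing the data. Of the 33, array weights called 4 there (Zbp1, Irf7, Cmpk2 and Rtp4) and the higher title range 2 (Zbp1 and Irf1). For p38a-lox PyMT minus p38a-lox, the 112 calls became 1416 with array weights, 169 with only the arrays compared and 0 within the lower title range, and array weights called 4 of the 33 (Zbp1, Gbp2, Parp9 and Dtx3l). With the longer motif, in which the bases CT follow the response element core, 23.3% of the promoter windows matched, against 0.303% of all genes. The cause of these changes was not tested. Fits within a title range rest on as few as 1 array in a group, and array weights lower the influence of arrays that depart from the fit.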

Other observations

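Among 33 tested further interferon-induced genes outside the 39, each of 2 comparisons had 1 call. Of all tested genes 1.26% were called in PyMT minus MMTV-Cre and 0.777% in p38a-lox PyMT minus p38a-lox. The arrays did not overlap in 7.09% and 8.16% of all tested genes in these comparisons. Oas1g, an oligoadenylate synthetase, had 9.42, 8.35, 8.53 and 9.03 in PyMT arrays against 6.26, 8.33, 7.14 and 6.46 in MMTV-Cre arrays. The PyMT arrays all lay above, the closest by a small margin over MMTV-Cre replicate 2, and the difference was 1.78 ± 0.383 (limma, adjusted p = 0.0356). It had 8.41, 8.21, 8.21 and 8.9 in p38a-lox PyMT arrays against 6.17, 6.74, 7.13 and 6.87 in p38a-lox arrays, which did not overlap either, with a difference of 1.71 ± 0.383 (limma, adjusted p = 0.0515). Between title ranges Oas1g differed by 0.00 ± 0.29, unlike the OAS genes among the 39, a contrast that was not tested.

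Ifi47, a GTPase induced by interferon gamma, had 5.43, 4.41, 4.14 and 4.1 in p38a-lox PyMT arrays against 7.08, 6.65, 5.82 and 5.84 in p38a-lox arrays. The difference was -1.83 ± 0.355 (limma, adjusted p = 0.0292). The same p38a-lox arrays lay above every MMTV-Cre array, which had 4.85, 4.11, 4.3 and 4.7, by 1.86 ± 0.355 (limma, adjusted p = 0.169). Tlr3, the endosomal receptor of double-stranded RNA, had 7.99, 7.64, 8.05 and 8.68 in p38a-lox arrays against 6.86, 7.33, 6.11 and 7.28 in MMTV-Cre arrays, also without overlap (1.19 ± 0.321, limma adjusted p = 0.656). In that comparison 2.1% of all tested genes did not overlap and 0% were called. The other tested genes that act in the induction of interferons had estimates from -0.35 to 0.53 there. Of the interferon receptor genes, Ifnar2 was 0.71 ± 0.285 higher by estimate in PyMT than in MMTV-Cre arrays (limma, adjusted p = 0.267), and Ifngr1 had an estimate of -1.39 ± 0.55 in p38a-lox PyMT minus p38a-lox arrays (limma, adjusted p = 0.304).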
